A study of Mus musculus with 9 samples.

Results

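The 9 genes described here carry or regulate the interferon signal inside the cell. They are the kinases Jak1, Jak2 and Tyk2, the transcription factors Stat2, Stat3, Irf1, Irf7 and Irf9, and the feedback inhibitor Socs3. They were picked by name from the pathway downstream of the interferon receptors, and they are 9 of the 32287 gene IDs in the count matrices. The measurements are single-cell 3′ RNA counts from the ventricular-subventricular zone (vSVZ, the stem cell niche of the lateral ventricle) and from the rest of the brain (RoB: striatum, rostral migratory stream and olfactory bulb) of male mice. There were 4 groups with 2 mice each, and each group was 1 library. All mice were TiCY, that is, they carried a tamoxifen-inducible Cre recombinase under the promoter of Tlx (Nr2e1), which is active in neural stem cells, and an eYFP reporter that Cre switches on, and the strain name also holds an allele of Fas. The knockout mice (KO, strain TiCY-IFNAGRKO) also lacked the type I interferon receptor gene Ifnar1 and the type II receptor gene Ifngr1. WT young mice were 16 weeks old and received tamoxifen at 10 weeks, WT old mice were 80 weeks old and received it at 71 weeks, KO young mice were 16 weeks old and received it at 7 weeks, and KO old mice were 92 to 105 weeks old and received it at 85 or 98 weeks. The chase was 6 weeks in WT young mice and 9 weeks in the others. Genotype thus goes with chase in the young and with age in the old, and age goes with chase in WT. Each group is also a reaction of its own, and the group and its reaction cannot be told apart.

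Interferon receptors have no enzyme activity of their own and rely on Janus kinases bound to their tails. Type I receptors use Tyk2 and Jak1, and the type II receptor uses Jak1 and Jak2. After type I interferon, Stat2 joins another STAT and Irf9 to form a complex that binds interferon-stimulated response elements (ISRE), whereas STAT dimers bind gamma-activated sites (GAS). Irf1 is a rapidly induced transcription factor of the type II response, Irf7 amplifies the type I response, Stat3 carries signals of the gp130 cytokines more than of interferons, and Socs3 is induced by Stat3 and blocks Jak kinases at gp130-type receptors.

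The promoters of the members were searched for simple versions of both elements, since these letters are what the complexes named above are known to read. The window was 250 bases before to 50 bases after each RefSeq start on GRCm38.p6, which gave 11 promoters for the 9 genes. An ISRE-type motif (the letters GAAA, any 2 bases, and GAAA again, both strands) was present in 1 of these 11 promoters, that of Stat2, and in 3.44% of all 32851 promoters in the table. A GAS-type motif (TTCNNNGAA, both strands) was present in 2 of the 11, those of Irf1 and Socs3, and in 8.30% of all promoters. The matched letters are in capitals in the 3 windows below, which are written 5′ to 3′ on the strand of the gene. The Stat2 window is chr10:128270266-128270295 (plus strand) with the match 222 to 213 bases before the start. The Irf1 window is chr11:53769914-53769942 (plus strand) with the match 90 to 82 bases before the start. The Socs3 window is chr11:117969502-117969530 (minus strand) with the match 154 to 146 bases before the RefSeq start, which lies inside the longer gene span annotated by GENCODE.
Stat2: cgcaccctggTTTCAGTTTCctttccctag
Irf1: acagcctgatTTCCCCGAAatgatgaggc
Socs3: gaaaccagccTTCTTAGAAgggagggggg

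The libraries held 2423 to 6638 cells after filtering, with a median of 5067 UMIs (unique molecules) per cell in WT young and 7091 to 7437 in the other 3. Cells were clustered without the members and their pathway genes and named from marker genes: 5804 quiescent NSC-like cells (which include astrocytes, since their markers are shared), 465 activated NSC-like cells, 1004 cells like transit-amplifying progenitors (TAP), 6266 neuroblast-like, 649 neuron-like, 2023 olfactory ensheathing glia-like (OEG, the glia that wrap olfactory axons), 329 microglia-like and 104 endothelial-like cells. Microglia remained although the sort excluded CD45-positive cells. Hashtag oligonucleotides assigned 44.7% of quiescent, 74.9% of OEG-like and 99.7% of microglia-like cells to a mouse, but 10.9% of neuroblast-like cells. Of endothelial-like cells 97.1% were assigned, but their 14 to 43 cells per library were too few for mice with at least 20 cells each. Tests over mice were thus limited to quiescent, OEG-like and microglia-like cells. Levels are given as CPM (counts per 1000000 UMIs of a class). The deleted receptor gene Ifngr1 was at 65.5 to 79.6 CPM in quiescent cells of the 4 WT mice and at 1.08 to 4.27 CPM in those of the 4 KO mice. In bulk sums of a class, fewer expressing cells and fewer RNA molecules per cell cannot be told apart.

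Among the kinases, Jak1 was present throughout, Jak2 was higher in neuron-like, endothelial-like and neuroblast-like than in quiescent cells, and Tyk2 was barely detected. Jak1 (chromosome 4, 101152367 to 101265282, minus strand) is the kinase shared by both interferon receptors. In quiescent cells it was at 184 and 175 CPM in the young and old WT libraries and at 179 and 174 CPM in the young and old KO libraries (SD 4.66, n = 4), so the libraries barely differed. Microglia-like cells had 218 to 272 CPM and activated cells 161 to 222 CPM, and the range of activated cells overlapped both others. Along the lineage it then dropped to 26.4 to 53.4 CPM in TAP-like and 46.0 to 51.4 CPM in neuroblast-like cells, and stood at 129 to 159 CPM in neuron-like cells. The log2 difference from quiescent cells was -1.94 ± 0.10 in TAP-like cells (SE, edgeR adjusted p = 4.7e-20), -2.02 ± 0.08 in neuroblast-like cells (adjusted p = 7.9e-23) and -0.72 ± 0.09 in neuron-like cells (adjusted p = 7.9e-09). OEG-like cells had 102 to 117 CPM, below every quiescent library.

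Jak2 (chromosome 19, 29251828 to 29313080, plus strand), the partner kinase of the type II receptor, had its lowest median in quiescent cells, with 21.8 and 26.2 CPM in the young and old WT libraries and 20.6 CPM in both KO libraries. Neuroblast-like cells were at 44.3 and 52.3 CPM in WT and 48.2 and 51.4 CPM in KO and did not overlap with quiescent cells, a log2 difference of 1.04 ± 0.10 (edgeR adjusted p = 2.8e-12). Neuron-like cells ranged from 46.1 to 98.1 CPM (log2 difference 1.30 ± 0.13, adjusted p = 8.4e-12). Endothelial-like cells had 53.2 to 89.4 CPM on 30 UMIs (1.15 ± 0.32, edgeR adjusted p = 0.0038), above every neuroblast-like library. The neighbours TAP-like (17.3 to 32.3 CPM), activated (17.4 to 35.3 CPM) and OEG-like (26.7 to 31.3 CPM) overlapped in their ranges, the former 2 also with quiescent cells. RNA in near-empty droplets of 5 to 100 UMIs held Jak2 at 31.6 to 41.9 CPM, above the quiescent level.

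Tyk2 (chromosome 9, 21104068 to 21131243, minus strand), the kinase of the type I receptor, gave 16 UMIs in all quiescent cells, 11 in OEG-like cells and 0 in microglia-like and neuron-like cells. Its level was 0.147 to 0.619 CPM in quiescent libraries and at most 22.3 CPM elsewhere, in KO old endothelial-like cells, where 3 UMIs were behind it. It passed the low-count filter in no test, so that its classes could not be ranked at this depth. The gene lies opposite the annotated antisense gene 1700084C06Rik.

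Of the STATs, Stat2 had its highest median in activated cells and Stat3 in microglia-like cells. Stat2 (chromosome 10, 128270559 to 128292849, plus strand) was at 25.4 and 31.7 CPM in activated cells of the young and old WT libraries and at 24.5 and 29.1 CPM in those of KO. Quiescent cells had 9.27 and 15.8 CPM in WT and 11.6 and 11.1 CPM in KO, so the classes did not overlap, and the log2 difference was 0.87 ± 0.21 (edgeR adjusted p = 0.00048). OEG-like (11.7 to 33.8 CPM) and microglia-like cells (1.99 to 31.3 CPM) overlapped with activated cells. TAP-like (2.81 to 9.58 CPM) and neuroblast-like cells (6.09 to 8.08 CPM) lay at the low end and overlapped each other. Near-empty droplets held 7.62 to 22.99 CPM of Stat2.

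Stat3 (chromosome 11, 100885098 to 100939540, minus strand) was at 110 and 219 CPM in microglia-like cells of the young and old WT libraries and at 149 and 107 CPM in those of KO. OEG-like cells followed with 59.3 to 91.2 CPM and did not overlap with microglia-like cells. Quiescent cells had 33.3 to 52.8 CPM and neuroblast-like cells 34.7 to 38.2 CPM, neighbours that overlapped. TAP-like cells were lowest, with 5.89 and 2.40 CPM in WT and 14.03 and 5.62 CPM in KO, and did not reach the lowest activated library (15.2 CPM). Against quiescent cells the log2 difference was 1.70 ± 0.18 in microglia-like (edgeR adjusted p = 9.3e-11), 0.92 ± 0.12 in OEG-like (1.4e-08), -1.18 ± 0.19 in activated (2.2e-06) and -2.29 ± 0.20 in TAP-like cells (3.0e-13). The smaller differences of neuroblast-like (-0.33 ± 0.12) and neuron-like cells (-0.41 ± 0.17) fell short of the threshold in 6 and 8 of 12 alternative analyses. Stat3 ends against Stat5a on the opposite strand.

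All 3 interferon regulatory factors were lower in neuroblast-like and neuron-like than in quiescent cells. In OEG-like and microglia-like cells Irf1 and Irf9 were higher than in quiescent cells in every library, and Irf7 in the WT libraries. Endothelial-like cells were also higher in Irf1 (log2 difference 3.09, edgeR adjusted p = 1.8e-05, on 16 UMIs). Their Irf7 was higher too (3.91, edgeR adjusted p = 0.00075, on 8 UMIs), and their Irf9 did not pass. In oligodendrocyte-like cells all 3 were low, with 2 UMIs of Irf1, 0 of Irf7 and 7 of Irf9. Irf1 (chromosome 11, 53770014 to 53778374, plus strand) was at 87.9 and 78.2 CPM in microglia-like cells of the young and old WT libraries and at 39.8 and 76.6 CPM in those of KO. In OEG-like cells it was at 30.1 and 22.9 CPM in WT and 12.1 and 18.1 CPM in KO, and in quiescent cells at 3.39 and 4.58 CPM in WT and 2.57 and 3.47 CPM in KO. The 3 classes did not overlap, and the log2 difference from quiescent cells was 4.28 ± 0.27 in microglia-like (edgeR adjusted p = 9.1e-17) and 2.51 ± 0.23 in OEG-like cells (2.0e-12). Neuroblast-like and neuron-like cells stayed at or below 2.15 CPM.

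Irf9 (chromosome 14, 55603571 to 55610030, plus strand, its start overlapping the end of Rnf31 on the same strand) was at 13.9 to 46.9 CPM in microglia-like and 13.8 to 47.1 CPM in OEG-like cells, against 7.95 to 16.0 CPM in quiescent and 0 to 9.58 CPM in TAP-like cells. Irf7 (chromosome 7, 141262706 to 141266481, minus strand, overlapping Phrf1 on the other strand) rested on few molecules: 47 UMIs in OEG-like, 45 in quiescent, 17 in microglia-like and 0 in neuron-like cells. Its level reached 45.3 CPM in WT old endothelial-like cells (4 UMIs), and no adjacent pair of classes in its order was separated by the library ranges. In the young and old KO libraries quiescent cells had 0.626 and 0.770 CPM of Irf7. OEG-like cells had 0.714 and 0.318 CPM there, and microglia-like cells 0 in both.

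Socs3 (chromosome 11, 117966079 to 117970047, minus strand) was high in microglia-like and OEG-like cells and near 0 in neurons. It was at 650 and 798 CPM in microglia-like cells of the young and old WT libraries and at 649 and 762 CPM in those of KO. OEG-like cells had 385 and 255 CPM in WT and 275 and 329 CPM in KO. Activated cells had 66.0 and 129 CPM in WT and 74.1 and 191 CPM in KO, and quiescent cells 38.0 and 19.2 CPM in WT and 31.1 and 32.5 CPM in KO. These 4 classes did not overlap with each other, while the endothelial-like range (56.6 to 221 CPM) overlapped with that of activated cells. At the other end, neuroblast-like cells had 8.62 to 13.9 CPM and neuron-like cells 0 to 8.86 CPM. The log2 difference from quiescent cells was 4.51 ± 0.19 in microglia-like (edgeR adjusted p = 1.5e-22), 3.39 ± 0.17 in OEG-like (2.7e-20), 1.46 ± 0.21 in activated (1.4e-07) and -4.02 ± 0.53 in neuron-like cells (1.9e-08). Immediate early and stress genes also differed between these classes: the summed level of 21 such genes (Fos, Jun, Egr1 and others) was 51478 to 60472 CPM in microglia-like, 9670 to 11295 in OEG-like, 8949 to 14756 in activated and 2299 to 3889 CPM in quiescent cells. Endothelial-like cells had 23713 to 29874 CPM of these genes, more than OEG-like cells, but less Socs3. The part of tissue handling in the Socs3 and Irf1 levels was not tested.

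**Figure D1:**
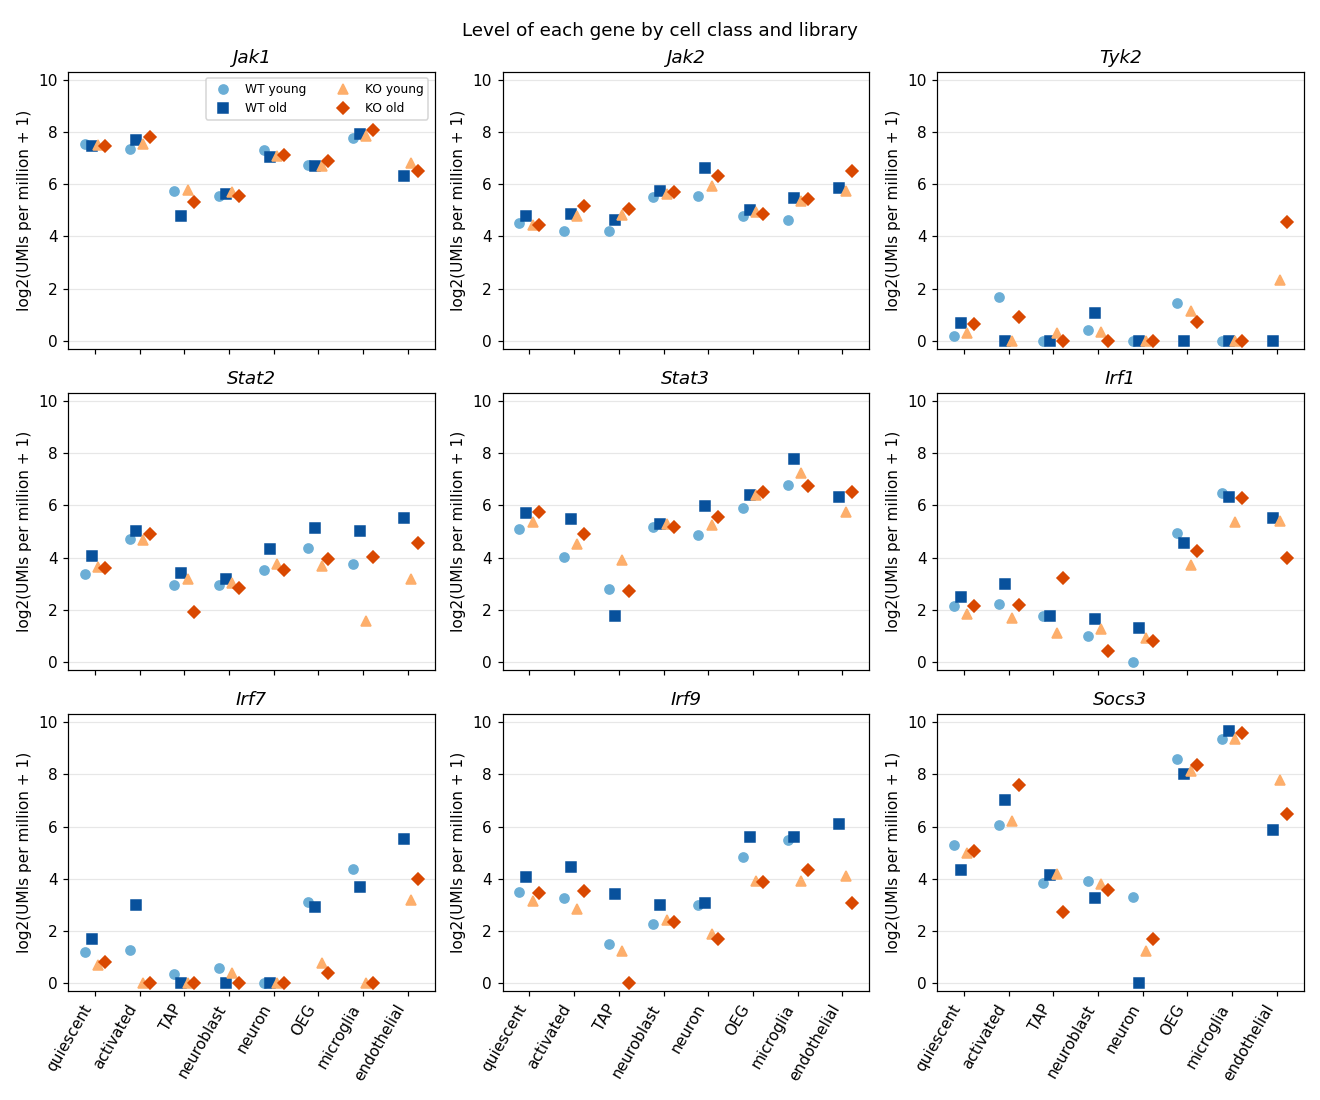
Level of each of the 9 genes as log2(CPM + 1) in 8 cell classes, with 1 point per library (no point where a library held fewer than 20 cells of the class). Jak1 is lowest in TAP-like and neuroblast-like cells (26.4 to 53.4 CPM), Socs3 spans from 0 in neuron-like to 798 in microglia-like cells, and Tyk2 lies near 0 in most classes.

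Over the 7 classes tested against quiescent cells, 45 of 56 member differences passed edgeR's test, 22 higher and 23 lower. These shares are to be read against the whole transcriptome, in which most genes differ between such classes. In OEG-like cells 8 of 8 tested members passed (56.0% of all 12808 genes tested did), 7 of them higher. The Irf7 call there (1.22 ± 0.46, edgeR adjusted p = 0.023) was lost in 5 of 12 alternative analyses, among them DESeq2 (adjusted p = 0.16) and the omission of the WT old (0.86, adjusted p = 0.30) or WT young library (0.78, adjusted p = 0.23). In microglia-like cells it was 7 of 8 (60.2% of all genes), each higher, and in neuroblast-like cells 8 of 8 (78.1% of all genes), with Jak2 the sole member that was higher. Neuron-like cells had 7 of 8 (68.1%), TAP-like cells 6 of 8 (73.9%), all lower, endothelial-like cells 5 of 8 (36.2%), and activated cells 4 of 8 (54.1%), with Stat2 and Socs3 higher and Stat3 and Jak1 lower. The median log2 difference of all genes was -0.35 in endothelial-like, -0.25 in microglia-like, -0.12 in activated and -0.11 in TAP-like cells, so values near these say little, as with Jak1 in activated cells (-0.27 ± 0.09), whose sign turned when libraries were scaled by their totals (0.10). The median over the tested members was 1.60 in microglia-like and 1.02 in OEG-like cells, against -1.57 in TAP-like and -1.34 in neuroblast-like cells.

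Class differences were read a second time with the mouse as the unit, as differences of log2(CPM + 5), a scale that understates the change of genes near 5 CPM or below, such as Irf1. In the 8 mice, OEG-like cells had 348 CPM of Socs3 on average and quiescent cells of the same mice 38.4 CPM, higher in 8 of 8 mice (log2 difference 3.10 ± 0.70, SD). Irf1 was higher in OEG-like cells in 8 of 8 mice (1.53 ± 0.78), as was Stat3 (0.76 ± 0.19), and Jak1 was lower in 8 of 8 (-0.73 ± 0.15). Each of these 4 had p = 0.0078 in the two-sided exact sign-flip permutation test, the smallest value that 8 mice can give, and an adjusted p of 0.053 over 27 tests. None of the 27 tests passed the threshold after adjustment, and 15 had an unadjusted exact p under 0.05. The classes also differed in tissue. Of the cells with a hashtag, 1491 OEG-like cells were from RoB and 25 from the vSVZ. Microglia-like cells were 310 and 18, and quiescent cells 654 and 1943. The part of tissue in the class differences was not tested.

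The remaining pathway genes were counted over a list of 32 (other receptors, kinases, STATs, IRFs and inhibitors). In microglia-like cells 20 of 28 tested were higher and 0 lower against quiescent cells, among them Irf8 (11.10), a factor of the myeloid lineage, the phosphatase Ptpn6 (12.04) and the inhibitor Socs1 (3.69 on the log2 scale). The share of all genes called was 60.2% there. In OEG-like cells 11 of 28 were higher and 7 lower, with a median of 0.09 (56.0% of all genes were called): Socs2 (5.74) and Socs1 (2.36) rose, and Irf2 (-0.72), a repressor that binds the same sites as Irf1, fell. In neuroblast-like cells 11 were higher and 13 lower, with a median of 0.20 (78.1% of all genes were called): Socs2 (4.79) and Cish (5.17), inhibitors of growth hormone-type signalling, rose while Ifngr1 (-3.16), Irf3 (-1.67) and Il10rb (-3.89), a receptor subunit for interleukin 10, fell. Among 10 gp130-type and related receptors, neuroblast-like cells had 7 of 9 tested lower and 1 higher, near the share of all genes called, including Lifr (-3.03) and the shared subunit Il6st (-2.84), and OEG-like cells had 3 higher, Lifr (1.30), Osmr (2.42) and Ghr (0.93), and 1 lower, Egfr (-4.54).

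For each member, the genes with the most similar pattern were sought among 7221 genes of at least 20 CPM, over 34 sums of class and library. The sums share libraries and class composition, and the correlations are a description. Socs3 lay closest to Ppp1r15a (Pearson r = 0.938), Jun (0.933) and Hexim1 (0.913), Irf1 to H2-D1 (0.935), Klf2 (0.929) and Zfp36 (0.928), and Irf9 to Bst2 (0.835), B2m (0.823) and H2-K1 (0.814). Irf7 lay closest to Bst2 (0.782), Ifnar1 (0.781) and Col4a3bp (0.764), where Ifnar1 is the gene deleted in KO libraries. Jak1 was nearest to Itm2c (0.868) and Tle4 (0.850), Jak2 to Rapgef2 (0.867), Ubr4 (0.810) and Dmxl1 (0.801), and Stat3 to Xbp1 (0.887), Tgoln1 (0.863) and Ppt1 (0.856). Stat2 had no gene above 0.675 (Thap3, then Naf1 at 0.666 and Zfyve16 at 0.644), and the 3 values of Tyk2 (Gkn3 0.724, Ctla2a 0.707, Tbx3 0.696) rest on its few UMIs. Between members, the highest values were those of Irf1 with Socs3 (0.840), Irf1 with Irf9 (0.765) and Irf7 with Irf9 (0.760).

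Loss of both interferon receptors was compared first within OEG-like cells, where Irf9 and Stat2 fell in the old. Irf9 was at 44.6 and 48.4 CPM in the 2 WT old mice and at 12.6 and 15.8 CPM in the 2 KO old mice. The groups did not overlap, and KO old was lower by a log2 change of -1.60 ± 0.27 (SE, edgeR adjusted p = 0.0056). Stat2 was at 37.2 and 31.7 CPM in WT old and 17.4 and 15.1 CPM in KO old mice, again without overlap (log2 change -1.02 ± 0.22, edgeR adjusted p = 0.047). DESeq2 called Irf9 (adjusted p = 0.026) but not Stat2 (adjusted p = 0.87). Irf7 was at 7.44 and 7.45 CPM in WT old mice, with 33 UMIs together, and at 0 and 0.703 CPM in KO old mice, with 2 UMIs, a ratio of 17.6 (95% counting interval 4.51 to 152). In the old mice 2 of 8 tested members thus passed, against 0.387% of all 10084 genes, and Irf7 had an adjusted p of 0.096. The Stat2 call was lost without any 1 of the 4 old mice, and the Irf9 call without either WT old mouse (adjusted p = 0.056 and 0.13).

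In young mice the same genes were spread more widely. Irf9 was at 12.2 and 35.3 CPM in WT young and 23.04 and 10.6 CPM in KO young mice, which overlapped (log2 change -0.45 ± 0.46). Stat2 was at 19.6 and 15.5 against 12.9 and 11.4 CPM (-0.48 ± 0.42). Irf7 was at 17.1 and 2.21 CPM in WT young mice and at 0 in both KO young mice, at least 8.09-fold higher in WT if 3 UMIs over the group are taken as the floor. Irf1 was at 9.79 and 55.2 against 17.6 and 7.04 CPM. None of 8 members passed edgeR's test in the young (0.575% of all genes did), 3 had an unadjusted p under 0.05 (Irf1, Stat3 and Irf7), and DESeq2 called 0 of the 5 it gave an adjusted p.

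Over both ages Irf7 was the member that passed (1 of 8, against 0.813% of all genes), with a fitted log2 change of -5.37 ± 1.00 (edgeR adjusted p = 0.012), a size that depends on the prior count because the KO cells assigned to a mouse held 2 UMIs. It fell short without either KO young mouse, without either WT old mouse, and without the first WT young mouse, with log2 changes of -6.54 to -4.43 over all omissions of 1 mouse. Irf9 (-1.03 ± 0.28, adjusted p = 0.11), Stat2 (-0.75 ± 0.24, adjusted p = 0.22) and Irf1 (-0.75 ± 0.32, adjusted p = 0.41) were below 0, while Jak1 (0.18 ± 0.11), Jak2 (0.11 ± 0.19), Socs3 (0.07 ± 0.19) and Stat3 (0.36 ± 0.13) were above. Among 31 tested interferon target genes 17 were lower and 0 higher, with a median of -1.44 against 0.01 for all genes. Of the other pathway genes the deleted Ifngr1 (-4.65) and Ifnar1 (-2.17) were lower and none higher. The 8 members had a median of -0.34. Near-empty droplets held Irf9 at 9.52 and 23.8 CPM in the WT young and WT old libraries and at 4.60 (1 UMI) and 9.90 CPM in the KO young and KO old libraries, and the part of this free RNA in the difference was not tested.

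**Figure D2:**
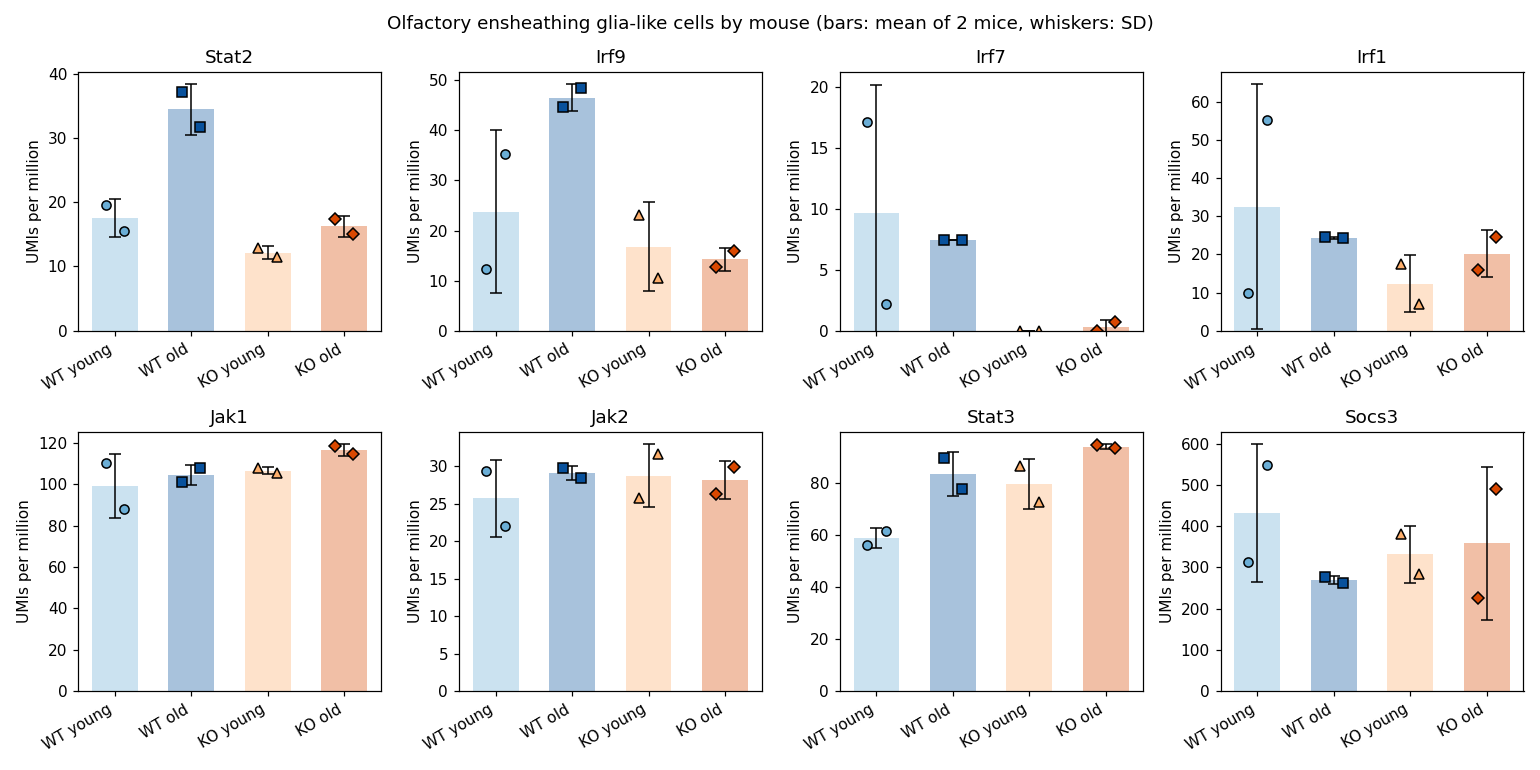
CPM of 8 genes in olfactory ensheathing glia-like cells, 1 point per mouse, with bars for the mean of 2 mice and whiskers for the SD. Irf9 and Stat2 of WT old mice (44.6 and 48.4, 37.2 and 31.7) lie above both KO old mice, and Irf7 is at 0 to 0.703 in the 4 KO mice.

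Microglia-like cells allowed 1 comparison over mice, KO against WT in the young, with 30 and 120 cells in WT and 26 and 66 cells in KO mice. Irf9 was at 45.9 and 42.7 CPM in WT young and at 13.8 and 14.01 CPM in KO young mice (log2 change -1.65 ± 0.82). Irf1 was at 91.8 and 87.0 against 48.4 and 36.4 CPM (-1.16 ± 0.43). In the other direction, Jak2 was at 15.3 and 25.6 CPM in WT and 55.4 and 33.6 CPM in KO mice (0.80 ± 0.69), and Stat3 at 84.2 and 116 against 138 and 154 CPM (0.42 ± 0.30). Irf7 and Stat2 were also lower in KO. Values of single mice that lie apart are a description here. The share of all genes without overlap was not counted. None of 6 tested members passed edgeR's test (adjusted p = 0.67 for Irf9 and 0.39 for Irf1, 0.573% of all 4540 genes passed), 2 had an unadjusted p under 0.05, and DESeq2 called 0 of 6. Irf7 had 14 UMIs in WT young and 0 in KO young mice (45.9 and 13.7 against 0 and 0 CPM), at least 3.26-fold higher in WT at the floor of 3 UMIs, and did not pass the filter. Stat2, also not tested, had 9 UMIs in WT young and 1 in KO young mice (7.65 and 13.7 against 0 and 2.80 CPM). Socs3 stayed between 618 and 796 CPM in these 4 mice (-0.10 ± 0.21). Over whole libraries, Irf7 counted 17 UMIs in WT and 0 in KO microglia-like cells, at least 4.45-fold higher in WT.

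The WT to KO ratio of Irf9, taken over the summed libraries in the 7 classes with 4 libraries, was largest in OEG-like cells (3.12, 95% counting interval 2.54 to 3.85), near it in neuron-like (2.84, 1.00 to 8.09) and microglia-like cells (2.81, 1.46 to 5.86), and smaller in quiescent cells (1.53, 1.26 to 1.85). In neuroblast-like cells it was 0.99 (0.69 to 1.404). By age, WT against KO neuroblast-like libraries had 3.81 against 4.32 CPM of Irf9 in the young. In the old they had 7.00 against 4.06 CPM, on 13 and 12 UMIs. Stat2 had a ratio of 2.35 (1.88 to 2.95) in OEG-like, 1.12 (0.93 to 1.35) in quiescent and 0.98 (0.75 to 1.29) in neuroblast-like cells. Irf7 had 14.4 (5.72 to 46.8) in OEG-like and 2.66 (1.41 to 5.12) in quiescent cells. Jak1 stayed between 0.88 and 1.06 in these 7 classes. Endothelial-like cells, with no WT young library, had 6 UMIs of Irf9 in old WT cells, against 4 and 1 in young and old KO cells. These intervals cover counting error only, and differences of the ratio between classes were not tested. The sums also mix the ages unequally. WT neuroblast-like cells were 2811 young and 315 old, and WT OEG-like cells 191 young and 607 old. The part of this mix in the ratios was not tested.

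**Figure D3:**
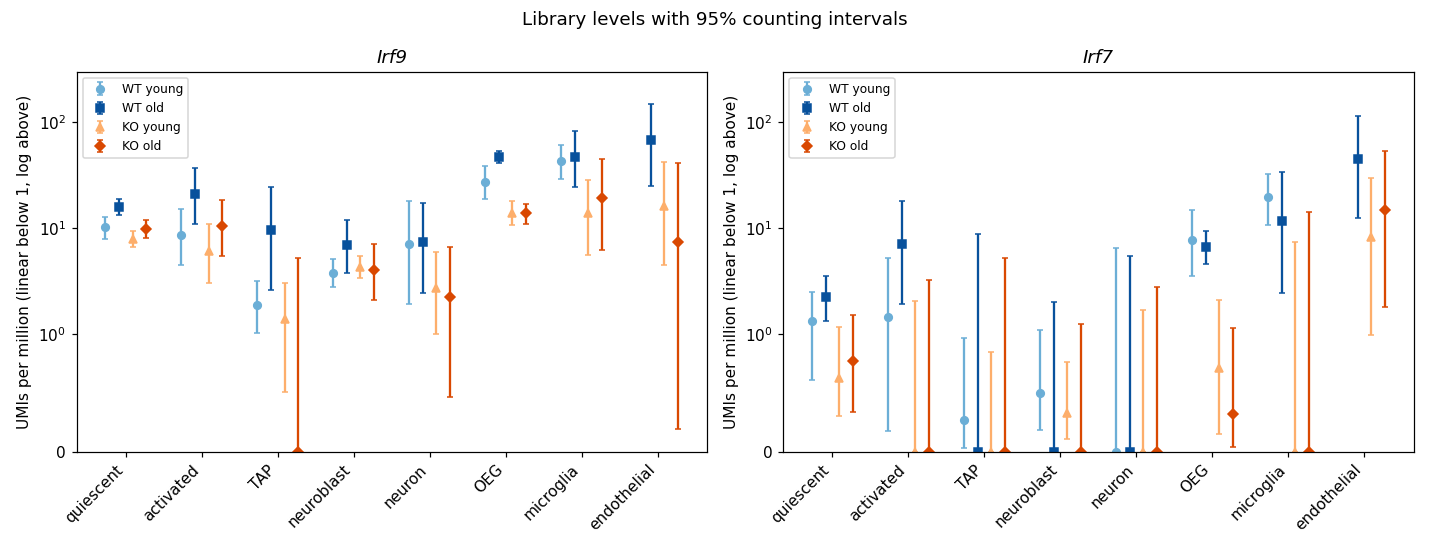
Irf9 and Irf7 in CPM by class and library, with exact 95% Poisson intervals that cover counting error only (axis linear below 1 and logarithmic above). In olfactory ensheathing glia-like cells Irf9 is at 27.5 and 47.1 in WT libraries and 14.03 and 13.8 in KO libraries, and Irf7 in microglia-like cells is at 19.5 and 11.7 in WT and 0 in both KO libraries.

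Quiescent NSC-like cells of the vSVZ showed no member past the threshold between KO and WT. This class includes astrocytes, and the eYFP-rich cluster described below made 11.3% to 51.6% of it per mouse. Irf9 was at 9.85 and 13.2 CPM in young and 18.4 and 16.4 CPM in old WT mice, and at 9.21 and 7.22 CPM in young and 11.3 and 8.54 CPM in old KO mice. The WT mice were above the KO mice of the same age without overlap, and the log2 change over both ages was -0.63 ± 0.26 (edgeR adjusted p = 0.295). Irf1 was at 7.39 and 4.88, 3.68 and 5.15, 1.08 and 3.61, and 3.77 and 1.90 CPM in the same order of groups (-0.92 ± 0.47, adjusted p = 0.45). Stat2 (0.05 ± 0.27), Jak1 (0.03 ± 0.08), Jak2 (-0.03 ± 0.19) and Socs3 (0.12 ± 0.23) lay near 0, and Stat3 was at 0.32 ± 0.15. Of 7 tested members 0 passed over both ages (1.14% of 10424 genes did), 0 in the young (3.02%) and 0 in the old (0.221%), with 2, 1 and 1 members at an unadjusted p under 0.05 and 0 called by DESeq2 among the 1, 1 and 3 that it gave an adjusted p. Interferon targets fell in these cells: 8 of 24 tested were lower and 0 higher over both ages, among them Bst2 (-2.32), Ifit1 (-2.68) and Oasl2 (-5.06). The log2 change of Irf9 between old KO and WT cells was -0.74 ± 0.32 here and -1.60 ± 0.27 in OEG-like cells, and this difference between classes was not tested.

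With age in WT, 2 members differed in quiescent cells, Stat3 upward and Socs3 downward (2 of 7 tested, against 15.8% of all genes). Chase also differed between these groups (6 weeks in WT young, 9 weeks in WT old), and age and chase cannot be told apart here. Stat3 was at 32.0 and 26.5 CPM in WT young and at 47.0 and 55.2 CPM in WT old mice. The groups did not overlap, and the log2 change was 0.87 ± 0.24 (edgeR adjusted p = 0.011). In KO mice it was at 46.1 and 38.8 CPM in the young and 62.5 and 42.2 CPM in the old (0.35 ± 0.18, adjusted p = 0.34). Near-empty droplets held Stat3 at 31.2 and 51.8 CPM in the WT young and WT old libraries. In the KO young and KO old libraries they held 32.2 (7 UMIs) and 44.1 CPM. The part of this free RNA in the Stat3 values was not tested. The call in WT did not hold without the second WT old or the second WT young mouse (0.70 and 0.73, adjusted p = 0.17 and 0.20). Of 7 gp130-type and related receptors tested, 1 was higher and 1 lower with age in WT, where 15.8% of all genes were called. The leukaemia inhibitory factor receptor Lifr rose (1.25 ± 0.18, edgeR adjusted p = 1.2e-05). Il11ra1, the receptor for interleukin 11, fell (-0.70 ± 0.13, edgeR adjusted p = 0.00038). Their part in the Stat3 values was not tested. DESeq2 called neither Stat3 nor Socs3 here (adjusted p = 0.095 and 0.36).

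Socs3 was at 54.2 and 62.7 CPM in WT young and at 11.0 and 37.5 CPM in WT old quiescent cells (log2 change -1.09 ± 0.34, edgeR adjusted p = 0.029), without overlap. This gene was concentrated in 1 of the quiescent clusters, in which 50% of the 994 cells had an eYFP molecule and which led with Crym, Prss56 and Thbs4. In that cluster Socs3 was at 110 and 117 CPM in young and 44.4 and 157 CPM in old WT mice, and at 74.0 and 173 CPM in young and 86.2 and 207 CPM in old KO mice. In all other quiescent clusters together it was at 6.81 and 4.35, 2.32 and 21.7, 9.91 and 19.3, and 16.3 and 4.63 CPM in the same order, so that the eYFP-rich cluster was higher in 8 of 8 mice. The share of this cluster among the quiescent cells was 46.6% and 51.6% in WT young and 21.2% and 11.3% in WT old mice, and it went from 37.4% and 38.5% to 15.6% and 16.3% in KO mice. Within the eYFP-rich cluster the log2 change with age in WT was -0.11 (adjusted p = 0.95), and without it 1.39 (adjusted p = 0.35), and neither subset passed the test. In the full class, the call was also lost without the first WT old mouse or without either WT young mouse (-0.66, -1.20 and -0.94, adjusted p = 0.17, 0.087 and 0.32), and without the second WT old mouse the change was -2.43 (adjusted p = 0.0012). Stat3, in contrast, was higher in WT old mice both within the cluster (37.7 and 28.2 against 79.9 and 72.2 CPM) and outside it (27.3 and 24.7 against 38.3 and 53.0 CPM), with log2 changes of 1.30 (adjusted p = 0.11) and 0.82 (adjusted p = 0.12).

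The summed immediate early genes lay at 4382 to 13265 CPM in the eYFP-rich cluster and at 1338 to 4026 CPM in the other quiescent cells of the 8 mice. Of 19 such genes tested in all quiescent cells, 5 were lower and 0 higher with age in WT, among them Fos (-1.01), Jun (-0.78) and Zfp36 (-1.32). With age in KO 9 were lower. Of all genes, 15.8% were called with age in WT and 4.85% with age in KO. Their part in the Socs3 values was not tested. Of the other members none passed with age in WT: Jak1 was at 191 and 195 CPM in WT young and 157 and 182 CPM in WT old mice (-0.16 ± 0.11), Irf9 averaged 11.5 and 17.4 CPM (0.52 ± 0.36, edgeR adjusted p = 0.36), and Jak2 was at 14.8 and 19.5 against 23.9 and 28.6 CPM (0.60 ± 0.28, adjusted p = 0.15).

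**Figure D4:**
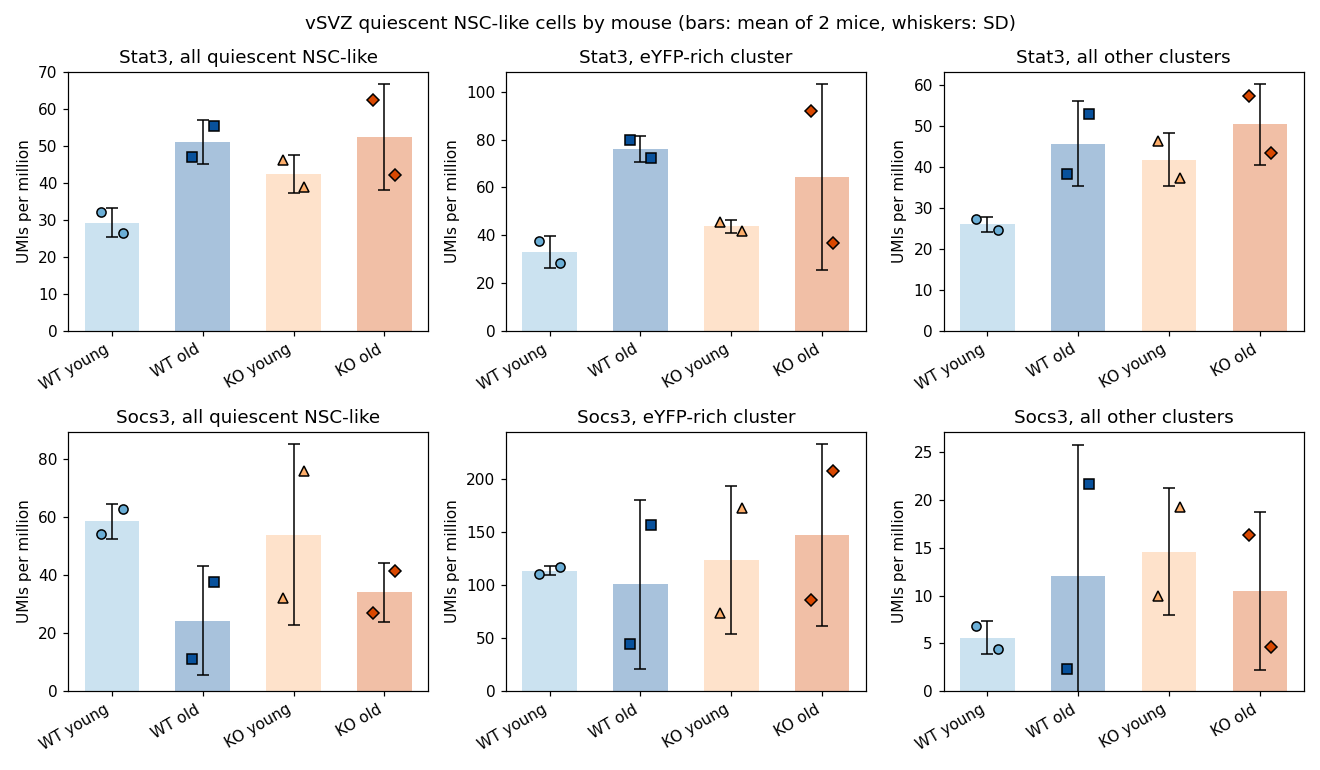
Stat3 and Socs3 in CPM in quiescent NSC-like cells of the vSVZ, 1 point per mouse, with bars for the mean of 2 mice and whiskers for the SD (cut at 0), for all such cells, the eYFP-rich cluster and the remaining clusters. Socs3 lies at 44.4 to 207 in the eYFP-rich cluster and 2.32 to 21.7 elsewhere, while Stat3 of WT old mice is above WT young mice in all 3 panels.

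Age in KO quiescent cells gave 0 of 7 members past edgeR's threshold (4.85% of all genes passed), 1 at an unadjusted p under 0.05 (Socs3, -0.67 ± 0.29) and 0 of 7 by DESeq2. In OEG-like cells age gave 0 of 8 in WT (2.02% of all genes) and 0 of 8 in KO mice (0.278%). The WT values were nonetheless apart for several members: Stat2 went from 19.6 and 15.5 to 37.2 and 31.7 CPM (0.95 ± 0.34, edgeR adjusted p = 0.16), Stat3 from 56.3 and 61.8 to 89.7 and 77.7 CPM (0.47 ± 0.21, adjusted p = 0.26), and Socs3 from 313 and 550 to 277 and 263 CPM (-0.72 ± 0.28, adjusted p = 0.19). These and Irf9 (0.90 ± 0.38) were the 4 with an unadjusted p under 0.05, against 0 in KO mice, and DESeq2 called 0 of the 3 and 8 members it gave an adjusted p in WT and KO. Whether age acted differently in WT and KO mice was tested by the interaction term: 0 of 7 members passed in quiescent cells (1.14% of all genes) and 0 of 8 in OEG-like cells (0% of all genes). In OEG-like cells Socs3 (0.86 ± 0.37) and Irf9 (-1.15 ± 0.53) had an unadjusted p under 0.05, in quiescent cells 0 members did, and DESeq2 gave an adjusted p to 1 member per class and called 0.

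**Figure D5:**
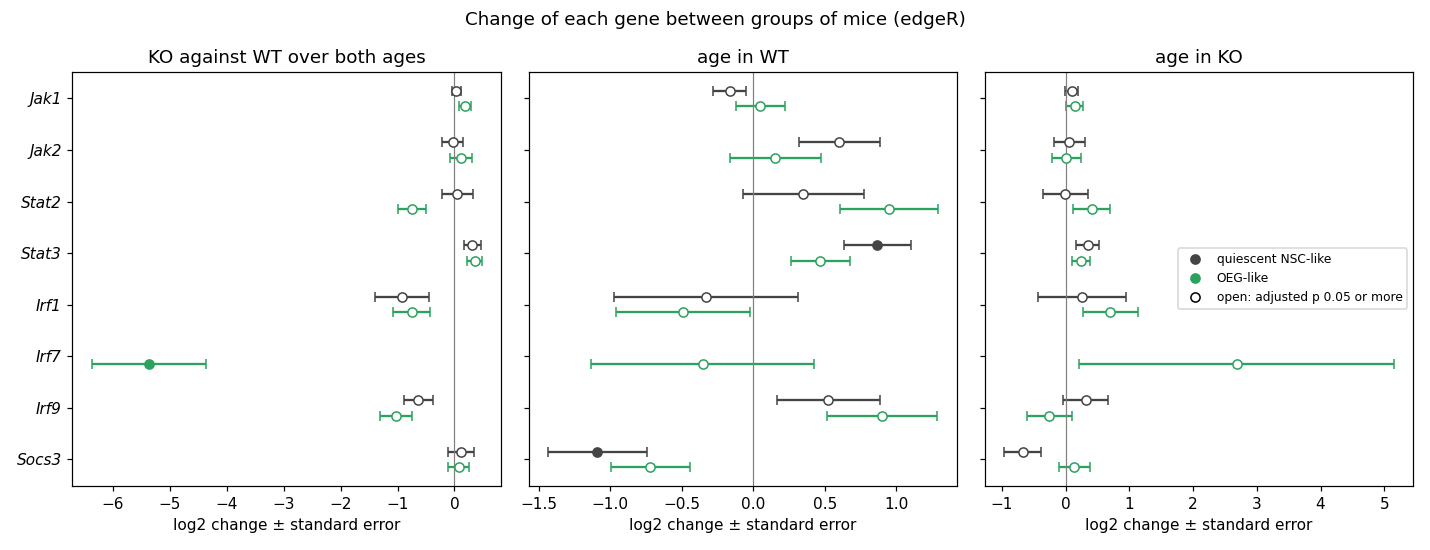
Log2 change with its standard error (edgeR) of 8 members in quiescent NSC-like and olfactory ensheathing glia-like cells for KO against WT over both ages, age in WT and age in KO, with filled points for an adjusted p under 0.05. Filled points are Irf7 for KO against WT (-5.37) and Stat3 (0.87) and Socs3 (-1.09) with age in WT, and Irf7 was not tested in quiescent cells.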

How the data were processed

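Per the labels and the study's methods, the authors filtered index-hopped reads, quantified them with kallisto and bustools against GRCm38 (no version given for these tools in the labels) and read the matrices into Scanpy 1.6.0. The deposited values used here are raw UMI counts per gene and barcode and hashtag counts per barcode, without normalization. From these, cells with 100 to 6000 genes, 1000 to 20000 UMIs and at most 10% mitochondrial UMIs were kept (18390 cells), and 335 doublets called per library were removed. Of 18360 distinct barcodes, 30 occurred in more than 1 library. Cells were clustered with scanpy 1.11.5 (50 principal components, Leiden resolution 1), leaving out the members, their pathway lists and 300 interferon genes, and 28 clusters were named from marker lists. Counts were summed per class and library, or per class and mouse (at least 20 cells), and tested with edgeR 4.0.16 (quasi-likelihood, TMM, filterByExpr, Benjamini-Hochberg over all genes tested), with the library as a block between classes. DESeq2 1.42.0 was an alternative, and the fits were tested on simulated data. In tests over mice, with 2 mice per group, p-values rest on the spread between mice, estimated jointly over all groups. In edgeR's tests between classes they rest on the spread between libraries, each of which is a different group. Genes named beside the members came from fixed lists (at most 8 per list and comparison) or had the 3 highest correlations with a member. Members and lists were chosen with earlier results of these data known. Of the other pathway genes and of the correlated genes, 1 each is not reported here. A hashtag library that the labels put in no group was not used.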

Additional observations from a re-analysis of the deposited data

How the results depend on the processing

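Among recounts of members past the threshold under other settings, 257 stayed within 1.5 times the reported count and 27 did not. Among recomputed single values, 2647 kept direction and call, 79 untested levels moved by more than their spread, 61 lost the call, 15 gained it and 4 changed sign. In OEG-like cells of old mice, 2 members differed between KO and WT, and the count was 1 with DESeq2, 1 with a hashtag posterior of at least 0.95, 4 without the filter on low counts, and 0 to 2 with 1 mouse left out. Without the filter it was also 1 (reported 0) for KO against WT in the young, 2 (reported 1) over both ages, 1 (reported 0) for age in WT and 1 (reported 0) for the interaction, and with 1 mouse left out it was 0 to 1 over both ages and for the interaction. In quiescent cells, age in WT gave 2 members, and 0 with DESeq2, 1 with Leiden resolution 0.5, 1 with resolution 2, 0 with at least 2000 UMIs per cell, and 0 to 1 with 1 mouse left out. It gave 0 within the eYFP-rich cluster and 0 without it, a split that was chosen after seeing the data. Age in KO gave 0, and 1 without the filter and 0 to 1 with 1 mouse left out. The changes of sign were Socs3 in TAP-like cells (0.19 with at least 2000 UMIs), Jak1 in activated cells (0.10 scaled by totals only), and Socs3 with age in WT (1.86 with at least 2000 UMIs, where the eYFP-rich cluster of 1108 cells stayed unnamed and left the class, and 1.39 without that cluster). With at least 2000 UMIs that cluster was thus also missing from the quiescent cells against which TAP-like cells were compared. Its part in the first of these changes was not tested. Socs3 in neuroblast-like cells lost its call against quiescent cells in 1 of 12 alternative analyses (-0.03). Against quiescent cells, Irf7 in microglia-like cells lost its call without the WT young library (1.17, adjusted p = 0.43) and Socs3 in endothelial-like cells without the KO young library (0.92, adjusted p = 0.29). No paired analysis was possible because, for genotype and age, the mouse numbers of different groups name different mice; class differences were blocked by library and read within mice. Depth limits Tyk2 and Irf7 most, and intervals cover counting error only.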
